A study of Homo sapiens with 6 samples.

Results

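The genes described here are 35 members of the TGF-beta and BMP pathway, measured in ARPE-19 cells that carried a satellite alpha plasmid and in control cells. ARPE-19 is an established human line of retinal pigment epithelium, the pigmented layer behind the retina. The SATalpha group received a GFP plasmid that also holds satellite alpha, the DNA repeat found at human centromeres, and the GFP group received the GFP plasmid without it. Cells of both groups therefore received GFP and went through the same transfection, with 2.5 µg of plasmid in each well of a 6-well plate. Each group had 3 wells, 1 array per well, on a 3′ expression array. The labels do not say whether the wells came from separate cultures, so the p-values measure only the spread between these samples, which may be technical. The labels also give no harvest time and no share of transfected cells. Members were found by symbol: every probe set on the array that the platform annotation assigns to a single listed gene was taken. This gave 104 probe sets of 49372 in the table, for 34 of the 18132 genes with such a probe set. BMPR1A, a type I BMP receptor, had no such probe set and was not analysed here.

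Ligands of the TGF-beta family assemble type II and type I receptor kinases at the cell surface. The type I receptor then phosphorylates SMAD proteins, mainly SMAD2 and SMAD3 after TGF-beta or activin and SMAD1, SMAD5 and SMAD9 after BMP, and these enter the nucleus with SMAD4. Many of the genes they activate encode brakes on the pathway itself, such as SMAD6, SMAD7, SKIL and BAMBI, and the ID genes are classic BMP targets. In retinal pigment epithelium the pathway is best known for driving a change towards a mesenchymal, contractile cell.

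All levels below are the authors' normalized log2 values, and all differences are SATalpha minus GFP on that scale. Array medians lay between 5.29 and 5.32, and across probe sets any pair of arrays correlated at 0.995 to 0.997. No array stood apart by these measures, although the count of genes that passed depended on the arrays used, as given below. The 3′ minus 5′ control difference of GAPDH, a measure of RNA quality, was 0.393 ± 0.068 in SATalpha arrays and 0.393 ± 0.046 in GFP arrays (SD, n = 3 each, two-sided exact permutation p = 1, where the smallest possible p is 0.1). For the ACTB control the same difference was larger, 2.01 ± 0.13 in SATalpha arrays and 2.06 ± 0.07 in GFP arrays (SD, two-sided exact permutation p = 0.6). Of 14 markers of retinal pigment epithelium, 13 had a probe set and 8 lay above the floor of a mean log2 level of 5.19 set below. OTX2 (8.32 in SATalpha and 8.37 in GFP arrays), MITF, KRT8 and KRT18 were among these, while the visual cycle genes RPE65 and RLBP1 and the channel gene BEST1 were below it. Of the 8, 2 fell, KRT8 by 0.13 and KRT18 by 0.21 (limma adjusted p = 0.0266 and 0.000675). That is 25%, close to the 20.8% of all tested genes that passed. Of the 20 markers of fibroblasts, endothelium, leukocytes, glia and neurons, 8 were above the floor and 0 passed the test by limma, with 0 at an unadjusted p under 0.05.

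Satellite alpha was accompanied by higher mRNA of 4 of the 10 pathway inhibitors among the members, SKIL, FST, SMAD7 and BAMBI. It was accompanied by lower mRNA of another, the ubiquitin ligase gene SMURF1. Also lower were the receptor TGFBR2, the BMP signal carrier SMAD1, the BMP targets ID2 and ID3 and the matrix gene LTBP2. INHBA, which encodes an activin subunit, and the co-receptor gene TGFBR3 were also higher. Each gene was represented by its brightest probe set, and the 40% of genes with the lowest mean level were left out. Of the 34 members with a probe set, 31 were tested, and TGFB3, LTBP1 and SMAD9 were below the floor. By limma with Benjamini-Hochberg adjustment over 10879 genes at a threshold of 0.05, 6 members rose, 6 fell and 19 did not pass. Over all tested genes 20.8% passed, 7.72% higher and 13.0% lower, against 38.7% of the tested members. Members were chosen with earlier results of these data in view, so this share is a description. The median log2 difference was 0.02 over the tested members and -0.02 over all tested genes. The groups did not overlap in 15 of 31 members (48.4%), against 37.6% of all tested genes. Every change was small: the largest was 1.46-fold, and 0 members reached 1.5-fold, which 0.818% of all tested genes did. SKIL alone passed that size under an alternative: without SATalpha replicate 3 (a log2 difference of 0.66), without GFP replicate 1 (0.61) and with array weights (0.64). In these bulk samples, fewer cells that express a gene and less of its RNA per cell cannot be told apart. The count of members that passed was 10 to 14 whichever array was left out, while the count over all genes, 2259, was 1216 without GFP replicate 1 and 1396 without SATalpha replicate 1.

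**Figure D1:**
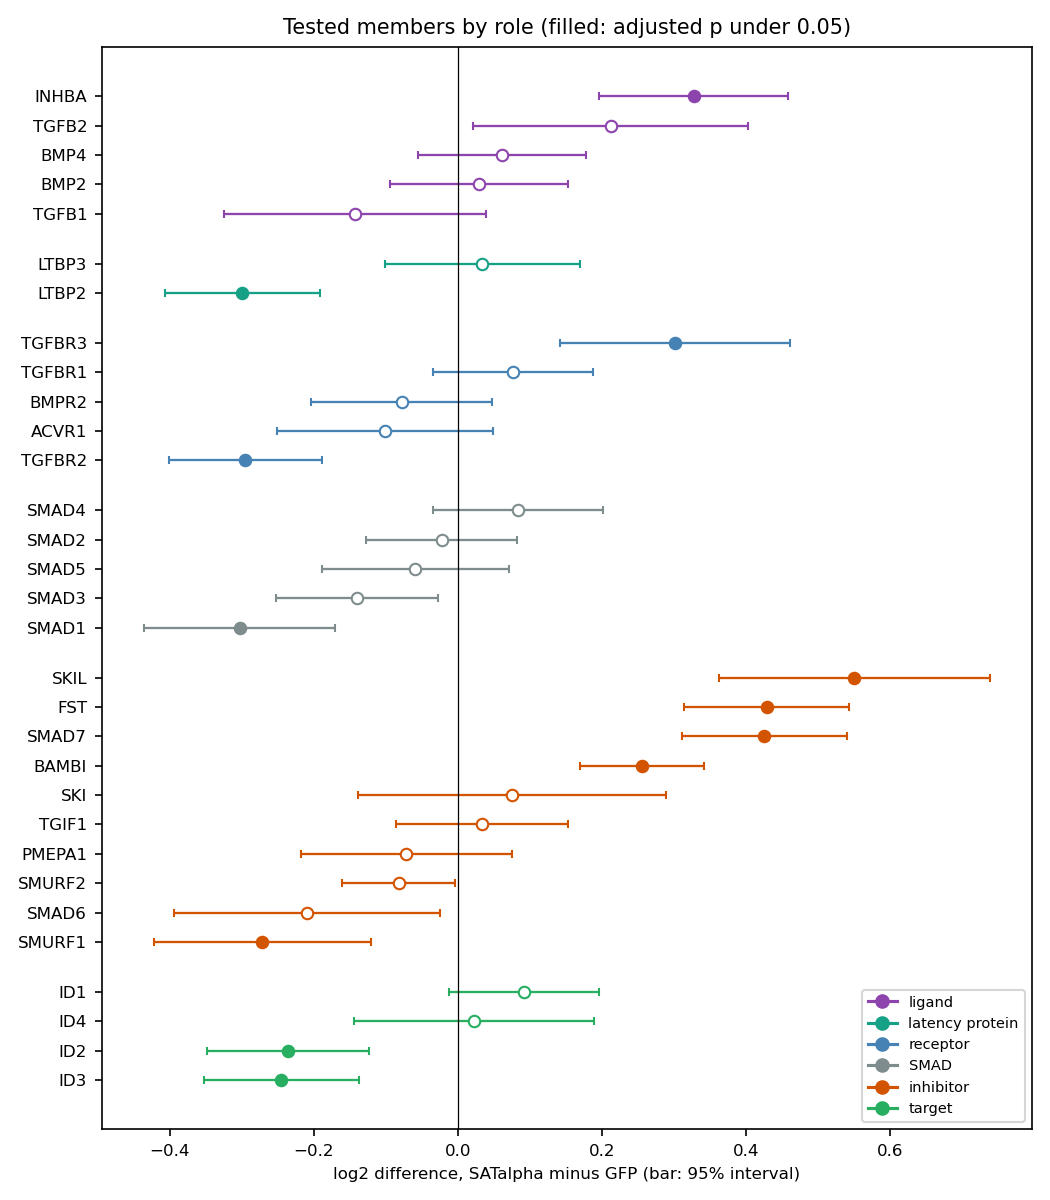
Log2 difference, SATalpha minus GFP, of the 31 tested members, grouped by role, with limma's 95% interval as the bar. Filled points passed an adjusted p of 0.05. Inhibitors span the widest range, from SMURF1 at -0.27 to SKIL at 0.55, and the 4 ID targets lie between -0.25 and 0.09.

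Of the 10 inhibitor genes, 4 rose, 1 fell and 5 did not pass, so 50% passed, against 20.8% of all tested genes. Of 15 other intracellular regulators tested in the wider list below, not all of them inhibitors, 1 rose and 3 fell (26.7% passed). The corepressor gene TGIF2 was among those that fell. SKIL, a corepressor that sits on SMAD complexes at DNA and is also called SnoN, had levels of 8.48, 8.31 and 8.06 in SATalpha arrays, against 7.85, 7.63 and 7.72 in GFP arrays. The 3 SATalpha values were all above the 3 GFP values, with SATalpha replicate 3 the nearest to them. The difference was 0.55 (SE 0.09, limma adjusted p = 0.00066). Its other probe sets, which read other stretches or transcripts of the gene, gave 0.54 and 0.56. With each array left out, the SKIL difference ran from 0.45 to 0.66. SKI, the related corepressor, had 6.47, 6.61 and 6.81 in SATalpha arrays, against 6.74, 6.51 and 6.40 in GFP arrays. Its groups overlapped and the difference of 0.08 did not pass (95% interval -0.14 to 0.29, adjusted p = 0.644). The other SKI probe sets were all dimmer. Those tested differed by 0.15 and 0.12 and did not pass in the fit over probe sets. Those below the floor, which were not tested, differed by 0.22 and 0.56. The mean of all, which includes these dim probe sets, was 0.22 (adjusted p = 0.0531). SKIL and BAMBI are members with a single annotated start, and the 250 bases before that start are shown because both genes rose and both windows hold letters that SMAD proteins are known to bind, a choice made after the values and sequences were seen. Capitals mark CAGAC, a short SMAD-binding element, and GGCGCC and GGAGCC, the GC-rich elements known from BMP targets, on either strand. The sequences are from RefSeq on GRCh38.p14, at chr3:170357465-170357714 on the plus strand and chr10:28677271-28677520 on the plus strand.
SKIL: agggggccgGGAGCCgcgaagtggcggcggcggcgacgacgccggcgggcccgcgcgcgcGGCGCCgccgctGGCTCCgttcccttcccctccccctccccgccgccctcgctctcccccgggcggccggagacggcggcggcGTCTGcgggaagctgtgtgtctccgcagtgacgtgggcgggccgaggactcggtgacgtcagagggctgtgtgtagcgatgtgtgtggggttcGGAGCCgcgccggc
BAMBI: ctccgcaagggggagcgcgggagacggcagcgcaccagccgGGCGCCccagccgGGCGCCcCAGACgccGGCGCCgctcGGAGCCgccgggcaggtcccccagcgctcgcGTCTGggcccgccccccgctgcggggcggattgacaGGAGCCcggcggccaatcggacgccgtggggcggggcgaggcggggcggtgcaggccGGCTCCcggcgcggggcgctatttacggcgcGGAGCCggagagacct
The SKIL window held 1 CAGAC, 1 GGCGCC and 3 GGAGCC, and the BAMBI window held 2, 3 and 4 of them, with 0 overlaps between motifs. Such letters are common: 38.0% of 35116 windows of the same length in the whole table hold CAGAC, 16.4% GGCGCC and 30.6% GGAGCC. Among the 69 windows of the members, the shares were 42.0%, 20.3% and 44.9%. INHBA, TGFBR3 and FST also rose and have a single annotated start, but their windows are not shown. A match is a description of the sequence and was not tested as a binding site.

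SMAD7, the inhibitory SMAD that blocks type I receptors and brings ubiquitin ligases to them, had 7.83, 7.90 and 7.89 in SATalpha arrays, against 7.45, 7.46 and 7.44 in GFP arrays. Here the groups were far apart relative to their spread, and the GFP values were nearly identical. The difference was 0.43 (SE 0.05, adjusted p = 0.000105). Both dimmer SMAD7 probe sets were also higher, by 0.29 and 0.11, but did not pass in the fit over probe sets, and the mean of all 3 was 0.28 (adjusted p = 0.0479). BAMBI, a decoy receptor without a kinase domain, had 9.91, 9.92 and 9.87 in SATalpha arrays, against 9.62, 9.68 and 9.63 in GFP arrays, from its only probe set. All SATalpha values were above all GFP values, and the difference was 0.26 (SE 0.04, adjusted p = 0.00057). FST, the secreted protein that binds and neutralizes activin, had 8.04, 8.06 and 8.13 in SATalpha arrays, against 7.62, 7.68 and 7.63 in GFP arrays. It too showed no overlap, with a difference of 0.43 (SE 0.05, adjusted p = 9.63e-05). A second FST probe set rose by 0.51 (adjusted p = 0.00147 over probe sets), and the third differed by 0.16.

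Other inhibitors were lower or did not pass. SMURF1, a ubiquitin ligase that marks SMAD1, SMAD5 and receptors for degradation, had 6.49, 6.36 and 6.38 in SATalpha arrays, against 6.71, 6.63 and 6.71 in GFP arrays. The SATalpha values lay below the GFP values, and the difference was -0.27 (SE 0.07, adjusted p = 0.0147). Its other, dimmer probe set differed by -0.0009, and the call was lost in the mean of both (-0.14, adjusted p = 0.319) and without GFP replicate 1 (-0.26, adjusted p = 0.0675), with 0.0118 to 0.319 over all alternatives. SMURF2, the related ligase, had 10.88, 10.92 and 10.84 in SATalpha arrays, against 10.99, 10.96 and 10.94 in GFP arrays. These groups did not overlap, yet the difference of -0.08 did not pass (adjusted p = 0.130). A second SMURF2 probe set fell by 0.15 in the fit over probe sets (adjusted p = 0.0431). The dimmest pointed the other way at 0.10 and did not pass (adjusted p = 0.583). SMAD6, the inhibitory SMAD that acts mostly on the BMP branch, had 6.03, 5.95 and 5.78 in SATalpha arrays, against 6.12, 6.06 and 6.21 in GFP arrays. All SATalpha values were below the GFP values, but the difference of -0.21 did not pass (95% interval -0.39 to -0.02, adjusted p = 0.102). SMAD6 was thus on the opposite side of 0 from SMAD7, and the difference between the 2 responses was not tested. PMEPA1, a membrane protein that sequesters SMADs and is itself induced by TGF-beta, differed by -0.07 (adjusted p = 0.503), and the corepressor TGIF1 by 0.03 (adjusted p = 0.718). Both had overlapping groups.

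**Figure D2:**
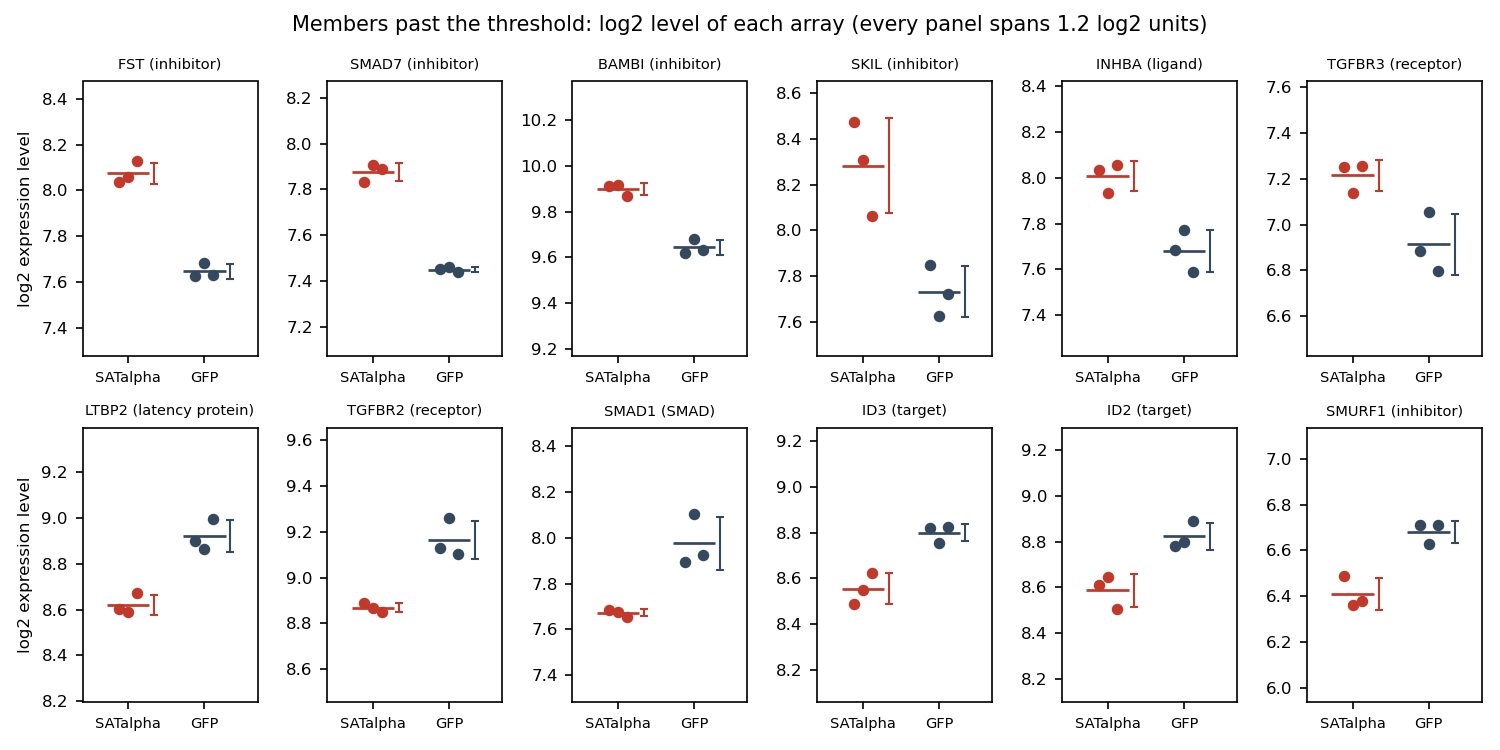
Log2 level of each of the 12 members past the threshold, with 1 point per array (3 SATalpha arrays left, 3 GFP arrays right), the group mean as a line and the SD as a bar (n = 3). The top row holds the members that were higher with satellite alpha and the bottom row those that were lower. The 3 SATalpha points lie on 1 side of the 3 GFP points in every panel.

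Of the 5 tested ligand genes, 1 rose and 4 did not pass (20% passed, against 20.8% of all tested genes). INHBA, the subunit that pairs with itself to form activin A, had 8.04, 7.94 and 8.06 in SATalpha arrays, against 7.68, 7.77 and 7.59 in GFP arrays. The groups did not overlap, and the difference was 0.33 (SE 0.06, adjusted p = 0.00199). A second INHBA probe set rose by 0.39. INHBA and FST, an activin subunit and an activin binder, were therefore both higher. TGFB2, the isoform best known from the eye, had 8.07, 7.88 and 8.17 in SATalpha arrays, against 7.85, 8.01 and 7.63 in GFP arrays. Its groups overlapped, and the difference of 0.21 did not pass (95% interval 0.02 to 0.40, adjusted p = 0.110). It passed without GFP replicate 2 (0.30, adjusted p = 0.0403), without SATalpha replicate 2 (0.29, adjusted p = 0.0328) and with array weights (0.20, adjusted p = 0.0471). The adjusted p was 0.0328 to 0.898 over all alternatives. A dimmer TGFB2 probe set pointed the other way at -0.24 and did not pass either. TGFB1 had 5.89, 5.84 and 5.95 in SATalpha arrays, against 6.09, 5.90 and 6.12 in GFP arrays, a difference of -0.14 (adjusted p = 0.259). The BMP ligand genes BMP2 and BMP4 differed by 0.03 and 0.06 (adjusted p = 0.767 and 0.470), with 95% intervals of -0.09 to 0.15 and -0.06 to 0.18. The 3 TGFB3 probe sets had mean levels of 2.46 to 3.79, below the floor, and were not tested.

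Latent TGF-beta binding proteins hold the secreted ligand in the matrix until it is released. LTBP2 belongs to this family by structure but does not bind latent TGF-beta. It had 8.60, 8.59 and 8.67 in SATalpha arrays, against 8.90, 8.86 and 9.00 in GFP arrays. Every SATalpha value was below every GFP value, and the difference was -0.30 (SE 0.05, adjusted p = 0.000947). Its second probe set differed by -0.14, which did not pass in the fit over probe sets (adjusted p = 0.070). LTBP3, which does bind the latent ligand, differed by 0.03 (adjusted p = 0.753). LTBP1 had 4.80, 4.83 and 4.46 in SATalpha arrays, against 4.77, 4.83 and 4.89 in GFP arrays, and was below the floor of the fit over genes.

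Among the receptors, 1 rose and 1 fell of 5 tested (40% passed, against 20.8% of all tested genes). TGFBR2, the type II receptor that binds TGF-beta first and activates TGFBR1, had 8.89, 8.87 and 8.85 in SATalpha arrays, against 9.13, 9.26 and 9.10 in GFP arrays. The SATalpha values clustered tightly below the GFP values, and the difference was -0.30 (SE 0.05, adjusted p = 0.000947). The dimmer TGFBR2 probe set differed by -0.10 and did not pass. TGFBR3, or betaglycan, which presents TGF-beta to TGFBR2, had 7.25, 7.14 and 7.25 in SATalpha arrays, against 6.89, 7.06 and 6.80 in GFP arrays. Its groups did not overlap, although GFP replicate 2 came close. The difference was 0.30 (SE 0.07, adjusted p = 0.0112), and the other TGFBR3 probe sets gave 0.26 and 0.34, the first of them past the threshold. The call was lost without GFP replicate 1 (0.29, adjusted p = 0.0555) or SATalpha replicate 1 (0.28, adjusted p = 0.0528), with 0.00207 to 0.0555 over all alternatives. TGFBR1, the type I receptor, differed by 0.08 (95% interval -0.03 to 0.19, adjusted p = 0.322). Its other probe sets, below the floor, differed by 0.36 and 0.25, and the mean of all was 0.23 (adjusted p = 0.0677), so the size for TGFBR1 depended on the probe set. For ACVR1, a type I receptor for BMP and activin, the difference was -0.10 (95% interval -0.25 to 0.05). Its dimmer probe sets differed by 0.05, 0.14 and 0.16 and did not pass, so the direction for ACVR1 depended on the probe set. For BMPR2, the type II BMP receptor, the difference was -0.08 (95% interval -0.20 to 0.05).

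SMAD1 was the only one of the 5 tested signal-carrying SMAD genes to pass (20%, against 20.8% of all tested genes). It had 7.68, 7.68 and 7.65 in SATalpha arrays, against 7.89, 8.11 and 7.93 in GFP arrays. The groups did not overlap, with GFP replicate 2 the highest array. The difference was -0.30 (SE 0.06, adjusted p = 0.00362), and the second SMAD1 probe set fell by 0.39. SMAD5, which carries the same BMP signal, had 8.67, 8.46 and 8.55 in SATalpha arrays, against 8.65, 8.68 and 8.52 in GFP arrays. In this brightest probe set the groups overlapped (-0.06, 95% interval -0.19 to 0.07). The dimmer SMAD5 probe sets differed by -0.25, -0.13, -0.18 and 0.11, and none passed in the fit over probe sets. In the one at -0.18 the groups did not overlap. Whether SMAD1 and SMAD5 responded differently was not tested. SMAD9 was below the floor. On the TGF-beta side, SMAD3 had 9.21, 9.29 and 9.14 in SATalpha arrays, against 9.41, 9.27 and 9.39 in GFP arrays. The difference of -0.14 did not pass (adjusted p = 0.0753). SMAD3 did pass without GFP replicate 2 (-0.18, adjusted p = 0.0433) or SATalpha replicate 2 (-0.18, adjusted p = 0.0347). It also passed with array weights (-0.14, adjusted p = 0.0277), with 0.0277 to 0.266 over all alternatives. SMAD2 differed by -0.02 (95% interval -0.13 to 0.08).

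SMAD4, the partner shared by both branches, depended on the probe set. The brightest of its 7 probe sets had 8.96, 8.94 and 9.12 in SATalpha arrays, against 8.86, 8.94 and 8.96 in GFP arrays, a difference of 0.08 that did not pass. In the next brightest the values were 8.48, 8.41 and 8.38 in SATalpha arrays, against 8.55, 8.60 and 8.62 in GFP arrays. That probe set showed no overlap and fell by 0.17 in the fit over probe sets (adjusted p = 0.0369). The dimmest fell by 0.29 (adjusted p = 0.0282), and the other four differed by -0.13 to 0.12. The direction for SMAD4 is therefore uncertain, and it reversed to -0.07 in the mean of all probe sets.

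The ID genes encode small proteins that bind basic helix-loop-helix transcription factors and keep them off DNA, and BMP signalling through SMAD1 and SMAD5 is a well known inducer of them. Of the 4, 2 fell and 0 rose (50% passed, against 20.8% of all tested genes). ID2 had 8.61, 8.65 and 8.50 in SATalpha arrays, against 8.78, 8.80 and 8.89 in GFP arrays. The SATalpha values were all below the GFP values, and the difference was -0.24 (SE 0.05, adjusted p = 0.00614). In the second ID2 probe set the values were 7.90, 7.97 and 7.85 in SATalpha arrays, against 8.45, 8.42 and 8.41 in GFP arrays, and the fall was larger, 0.52 (adjusted p = 3.3e-05 over probe sets). The mean of both was -0.38. ID3 had 8.49, 8.55 and 8.62 in SATalpha arrays, against 8.82, 8.76 and 8.82 in GFP arrays. Again the groups did not overlap, with a difference of -0.25 (SE 0.05, adjusted p = 0.00362). The other ID3 probe sets fell by 0.36 and 0.31. ID1 had 9.80, 9.75 and 9.94 in SATalpha arrays, against 9.77, 9.71 and 9.75 in GFP arrays. Its groups overlapped and it did not pass: the difference was 0.09 (95% interval -0.01 to 0.20, adjusted p = 0.200), and its 3 probe sets all lay between 0.02 and 0.09. The difference between the responses of ID1 and ID3 was not tested. ID4 had overlapping groups and differed by 0.02 (95% interval -0.14 to 0.19). The 250 bases before the single annotated starts of the 2 genes that fell are also shown, with the same motifs in capitals. The sequences are from RefSeq on GRCh38.p14, at chr2:8681806-8682055 on the plus strand and chr1:23559502-23559751 on the minus strand.
ID2: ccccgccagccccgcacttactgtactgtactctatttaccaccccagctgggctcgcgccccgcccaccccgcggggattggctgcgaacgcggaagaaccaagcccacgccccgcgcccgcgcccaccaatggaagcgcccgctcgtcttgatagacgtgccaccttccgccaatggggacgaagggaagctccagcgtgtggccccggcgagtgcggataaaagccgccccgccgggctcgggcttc
ID3: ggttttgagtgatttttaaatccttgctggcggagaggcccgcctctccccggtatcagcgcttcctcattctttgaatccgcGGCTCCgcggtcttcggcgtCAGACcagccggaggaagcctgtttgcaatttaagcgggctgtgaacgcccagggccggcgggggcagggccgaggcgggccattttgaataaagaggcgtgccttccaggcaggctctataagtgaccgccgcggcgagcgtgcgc
The ID2 window held 0 of the 3 motifs, which says only that these letters are not in it, and the ID3 window held 1 CAGAC and 1 GGAGCC. No shorter or other motif was searched for. LTBP2 and SMURF1 also fell and have a single annotated start, but their windows are not shown. Whether the motifs go with the direction of change was not tested. The windows shown cannot tell, because SKIL and BAMBI were chosen partly for holding the motifs.

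All 104 member probe sets were also considered one by one, in a fit over the 26993 single-gene probe sets left after the lowest 40% were removed. Of the members' probe sets 91 were tested, 11 rose, 13 fell and 67 did not pass. That is 26.4%, against 16.2% of all tested probe sets (7.92% higher, 8.29% lower). Of the 12 genes past the threshold, 11 had a further probe set, and 7 had one that was called in the same direction. These 7 were INHBA, TGFBR3, SMAD1, SKIL, FST, ID2 and ID3. All 16 further probe sets of the 11 genes had the sign of the brightest one, although the one of SMURF1 was close to 0. Probe sets of a gene share the same RNA and are not replicates.

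**Figure D3:**
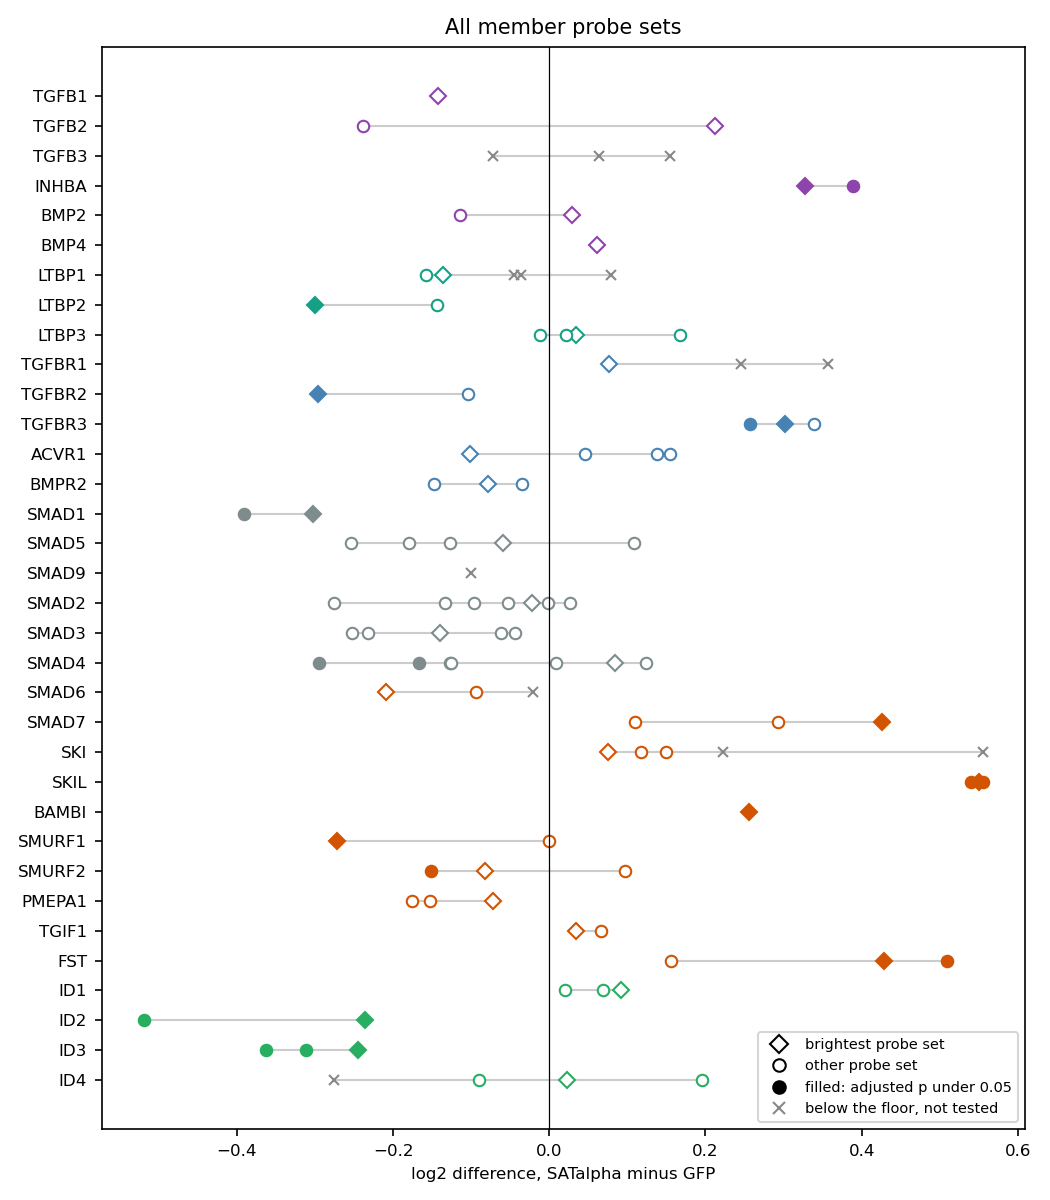
Log2 difference, SATalpha minus GFP, of all 104 member probe sets, 1 row per gene. Diamonds are the brightest probe set of a gene, circles the others, filled symbols passed an adjusted p of 0.05 over probe sets, and crosses were below the floor. The 3 SKIL probe sets coincide near 0.55, while the 7 of SMAD4 lie on both sides of 0.

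A wider list of 84 other pathway genes, which was drawn up by role with some results of these data already known, gave 81 genes that were analysed here and 52 tested. Of these 7 rose, 4 fell and 41 did not pass, so 21.2% passed, close to the 20.8% of all tested genes. The median difference was -0.03. Among the targets, the matrix protein gene CCN1 had 12.20, 12.19 and 12.18 in SATalpha arrays, against 11.78, 11.76 and 11.87 in GFP arrays, and rose by 0.38 (adjusted p = 6.06e-06). ACTA2, the smooth muscle actin of contractile cells, had 8.45, 8.42 and 8.46 in SATalpha arrays, against 8.90, 8.92 and 9.06 in GFP arrays. It went the other way, by -0.52 (adjusted p = 1.40e-05). TAGLN, which encodes another actin-binding protein of contractile cells, rose by 0.16 (adjusted p = 0.00823), and the homeobox gene MSX1, a BMP target in embryos, by 0.34 (adjusted p = 0.000410). For TAGLN the difference was 0.35 without probe sets that may bind several transcripts, those ending in _x_at or _s_at, and 0.22 in the mean of all. ACTA2 was not tested without those probe sets, and the mean of all gave -0.40 (adjusted p = 0.00199). CCN2, a standard TGF-beta target, differed by 0.05 (95% interval -0.07 to 0.18, adjusted p = 0.574). Of the 12 targets tested, 3 rose, 1 fell and 8 did not pass (33.3% passed, against 20.8% of all tested genes).

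Of the other regulators, TGIF2, a corepressor related to TGIF1, had 6.62, 6.50 and 6.75 in SATalpha arrays, against 7.04, 7.09 and 7.06 in GFP arrays. It fell by 0.44 (adjusted p = 0.000796) with no overlap. STUB1, a chaperone-linked ubiquitin ligase, fell by 0.29 (adjusted p = 0.000672), and FSTL1, a secreted relative of follistatin, rose by 0.19 (adjusted p = 0.00206). FSTL1 gave 0.39 without probe sets ending in _x_at or _s_at and 0.29 in the mean of all. E2F4, a partner of SMAD complexes in repression, fell by 0.17 (adjusted p = 0.0260). It no longer passed when any GFP array (-0.17, -0.17 and -0.16 for replicates 1, 2 and 3) or SATalpha replicate 1 (-0.18) or 3 (-0.14) was omitted, or in the mean of all probe sets (-0.15, adjusted p = 0.102), with 0.0139 to 0.102 over all alternatives. PPM1A, a phosphatase that acts on SMAD proteins, was outside the rule for naming and is named after its values were seen. It rose by 0.16 (adjusted p = 0.0441) and lost the call under 10 of 15 alternatives, with 0.0257 to 0.221 over all of them. RGMA and RGMB, membrane-anchored BMP co-receptors, rose by 0.31 and 0.20 (adjusted p = 0.0223 and 0.00586), but the mean of all probe sets gave 0.03 and 0.02 and neither call held there. RGMA also missed the threshold when GFP replicate 2 (0.27), GFP replicate 3 (0.31) or SATalpha replicate 2 (0.27) was omitted, or without probe sets ending in _x_at or _s_at (0.20, adjusted p = 0.147, with 0.0142 to 0.836 over all alternatives). None of the 7 other ligands tested passed by limma, against 20.8% of all tested genes, and 2 had an unadjusted p under 0.05. GDF15, a stress-induced ligand, differed by 0.10, and the BMP antagonist NOG by 0.01. The receptors ACVR2A and ENG differed by -0.18 and -0.09 (adjusted p = 0.116 and 0.510).

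**Figure D4:**
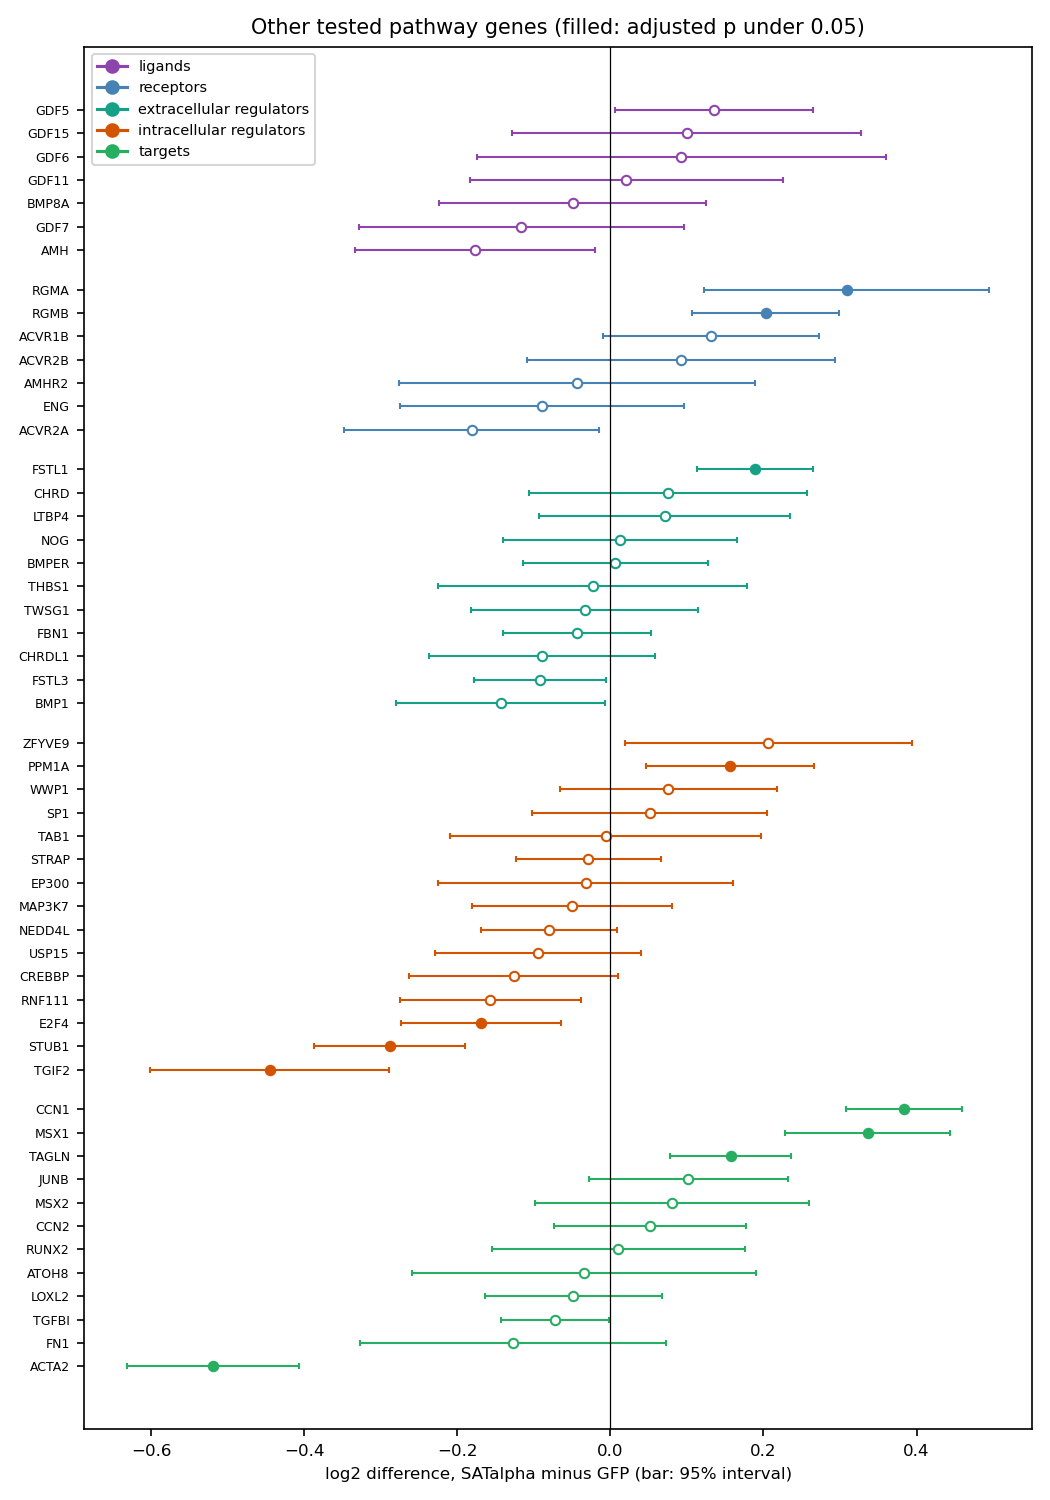
Log2 difference, SATalpha minus GFP, of the 52 tested genes of the wider pathway list, grouped by role, with limma's 95% interval as the bar. Filled points passed an adjusted p of 0.05. The points past the threshold lie on both sides of 0, from ACTA2 at -0.52 to CCN1 at 0.38.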

How the data were processed

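Total RNA from 6 wells of ARPE-19 cells, 3 SATalpha and 3 GFP, was labelled for Affymetrix 3′ expression arrays, per the labels' protocols. The authors deposited log2 values already normalized between arrays. Base 2 was inferred: the arrays reach 14.3, and the natural log of a 16-bit signal cannot exceed 11.1. Per the submitters' processing notes, MAS5 and RMA were used, but which of them made the values, and with which settings, is not given in the sources used here. The RMA method can compress small differences of dim probe sets, and no detection calls were used here. Annotation gave 1 symbol to 44988 of 49372 probe sets, several to 1832, and did not list 2473, and 79 were controls. Each of 18132 genes was its brightest probe set, and the lowest 40% were left out (floor 5.19 for genes and 4.65 for probe sets). Groups were compared with limma 3.58.1 (R 4.3.3), using lmFit, then eBayes with trend = TRUE, and Benjamini-Hochberg adjustment over all tested features. The median SE was 0.06, and 3 arrays per group limit the precision. The test was also run on simulated data with known changes. No build is named for the values, so gene coordinates are not given. Promoter sequences, from RefSeq on GRCh38.p14, matched 33 of 35 members, all but BMP2 and SKI.

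The members, the wider list and the rules were chosen with earlier results of these data known. All members could be named. Of the wider list, up to 10 genes past the threshold by smallest p, and GDF15, CCN2, ACVR2A, ENG and NOG, were named, and 1 further gene of this rule is not reported here. Alternatives were no filter or a 60% filter, median centring, quantile normalization, averaging a gene over its probe sets, no probe sets ending in _x_at or _s_at, a replicate block, no variance trend, array weights and each array left out in turn. No scan date or other batch label was found in the sources used here, so an effect of batch was not tested.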

Additional observations from a re-analysis of the deposited data

How the results depend on the processing

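Of 458 values of the 31 tested members under 15 alternatives, 432 kept their direction and side of the threshold, 4 lost a call, 6 gained one and 16 changed sign, all of the last in members that had not passed. A further 7 gave no value because the gene was not tested there, among them TGFBR2 and ID2 without probe sets ending in _x_at or _s_at. The count of members past the threshold, 12, was 10 to 14. Of the 12, 10 passed under every alternative in which they were tested, and the exceptions were TGFBR3 and SMURF1. The count over all genes, 2259, was 1300 with the replicate number as a block, 1216 to 2520 with each array left out and 3328 with array weights. Deviations from the group mean correlated at -0.0035, -0.24 and -0.29 between same-numbered wells. Between wells of unequal number they correlated at -0.13 to 0.34. With 3 wells per group, these correlations cannot show whether the numbers pair the wells. The block left the members' count at 12. With it RGMA, E2F4 and PPM1A lost their calls (adjusted p = 0.0702, 0.0804 and 0.106). The count of the wider list, 11, was 17 with array weights (7 higher and 10 lower, against 7 and 4) and 8 to 12 under the other alternatives, 8 with the replicate number as a block. Sign changes came with the mean of all probe sets for TGFB2 (-0.0134), BMP2 (-0.0425), ACVR1 (0.0596), SMAD4 (-0.0711), ID4 (-0.0368) and GDF15 (-0.0077). They came with array weights for BMP2 (-0.0091), LTBP3 (-0.0089), SMAD2 (0.0123) and SKI (-0.0469), and without probe sets ending in _x_at or _s_at for ACVR1 (0.046) and ENG (0.1069). With each array left out, differences ran from -0.0259 to 0.0597 for BMP2, -0.0105 to 0.0877 for LTBP3, -0.0138 to 0.1711 for SKI, -0.03 to 0.0916 for ID4, -0.0277 to 0.1955 for GDF15, -0.0227 to 0.121 for CCN2 and -0.057 to 0.0891 for NOG. The cause of these shifts was not tested. No detection call was used, so dim probe sets limit what can be said of TGFB3, LTBP1 and SMAD9.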
